A study of Homo sapiens with 6 samples.

Results

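Glucose transport, glycolysis and the response to low oxygen were followed through 39 genes in azacitidine-sensitive and azacitidine-resistant K562 cells. The 39 were chosen by name for their textbook roles, with earlier results of these data known. Each matched 1 of the 61487 Ensembl gene IDs of the deposited count table. Sensitive cells are the K562 line, a human leukaemia line that carries the BCR-ABL1 fusion and is labelled a myeloblast. Resistant cells were derived from the same line by months of exposure to rising concentrations of azacitidine, a cytidine analogue. Both were grown in RPMI medium with serum, penicillin and streptomycin, and each is represented by 3 libraries labelled as biological replicates. The library names of both groups end in NT, and the sample titles do not state whether azacitidine was present at harvest. The labels do not state whether the resistant population is 1 clone or whether the replicates were kept as separate cultures. Each p-value therefore reflects only how these 6 libraries vary, which may be technical.

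Glycolysis converts glucose to pyruvate in the cytosol, and lactate dehydrogenase turns pyruvate into lactate, which leaves the cell through monocarboxylate transporters. Hypoxia-inducible factors (HIF) are transcription factors whose alpha subunits are hydroxylated by oxygen-dependent prolyl hydroxylases and then degraded. When oxygen is low the alpha subunits persist and induce glucose transporters, most glycolytic enzymes, angiogenic factors and mitophagy receptors. Leukaemia cells in culture commonly run glycolysis at normal oxygen, and the mRNAs of its enzymes are abundant in them.

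Total counts ranged from 33007642 to 43006918 per library. The first principal component held 66.3% of the variance and separated the groups, and the second, with 18%, set the libraries numbered 3 apart from the other 2 of each group. Markers fixed for the line were present, with 9 of 10 at a mean of at least 1 CPM. CPM is the count of a gene relative to its library's scaled total. Their sum ranged from 553 to 662 CPM in sensitive and from 451 to 813 CPM in resistant libraries. Of 8 lymphocyte markers, 3 reached 1 CPM, and the list summed to between 28.3 and 121 CPM in sensitive and between 10.0 and 11.8 CPM in resistant libraries. CD3D and CD3G held most of this sum in sensitive libraries, while MS4A1 had no counts and CD2 at most 2 counts in any library. Fibroblast markers summed to between 1.25 and 3.46 CPM against 4.80 to 7.97 CPM (1 of 6 at 1 CPM), endothelial markers to 19.0 to 39.7 against 5.27 to 11.9 CPM (1 of 4) and epithelial markers to 156 to 194 against 110 to 137 CPM (3 of 5). The part of these markers in the results below was not tested. In bulk RNA, fewer cells of a type and less RNA per cell cannot be told apart.

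The glycolysis and hypoxia genes did not move as a block. Of 38 members tested, 3 were higher in resistant cells (SLC16A3, EGLN3 and BNIP3), 8 were lower (SLC2A3, PFKP, PDK1, EPAS1, VEGFA, NDRG1, P4HA1 and P4HA2) and 27 did not pass an adjusted p of 0.05 in edgeR's quasi-likelihood test. That is 28.9% of members called, beside 23.0% of all 20891 genes tested, of which 9.83% were higher and 13.1% lower. The share of members called was therefore near the background. The median log2 fold change of the tested members was −0.02, beside 0.03 over all tested genes. Groups did not overlap for 12 members (31.6%), beside 40.1% of all tested genes. The count of higher members was 1 when sensitive library 1 or 2 or resistant library 2 or 3 was left out. Of all genes, 4.84%, 5.29% and 4.86% were higher in the first 3 of these fits and 14.8% without resistant replicate 3. The count of lower members was 4 without resistant replicate 2, where 7.76% of all genes were lower. With library totals alone, 6 members were higher and 6 lower, beside 14.6% and 10.1% of all genes, so the larger share of all calls turned from lower to higher with the scaling. Without both libraries numbered 3, 7 members were higher and 11 lower, beside 21.2% and 22.9% of 21908 genes tested. The remaining member, CA9, a membrane carbonic anhydrase gene and a classical hypoxia target, was too low to test, with 4 reads counted over the sensitive libraries and 0 over the resistant ones. Where no read was counted in a library, 3 counts were taken as the limit, so a level of up to 0.0754 to 0.0902 CPM is still possible, for counting error only.

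**Figure D1:**
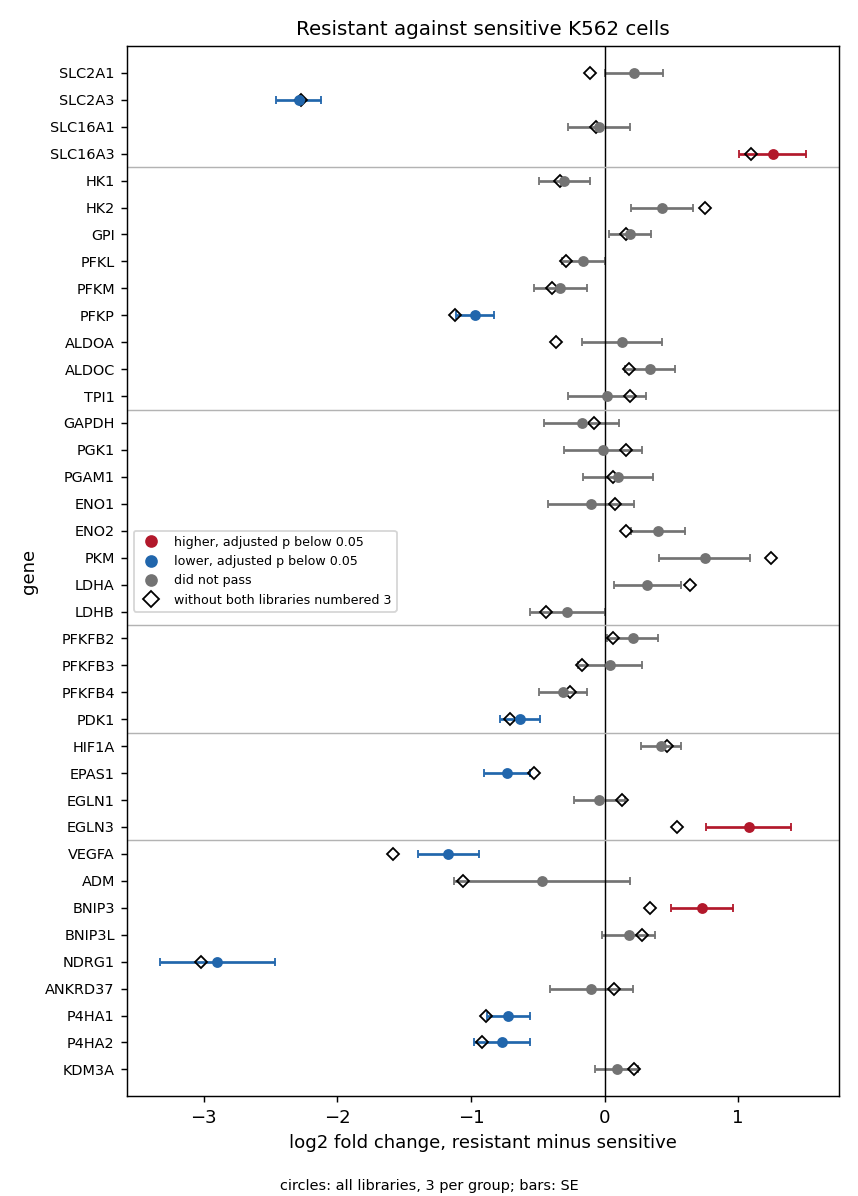
Log2 fold change of each of the 38 tested members, resistant minus sensitive (horizontal axis), in the order of the text with grey lines between roles. Circles and bars are estimates and SE over 3 libraries per group, and open diamonds are estimates without both libraries numbered 3. SLC2A3 at −2.29 and NDRG1 at −2.90 lie farthest from 0, and PKM moves from 0.75 to 1.25 when the libraries numbered 3 are left out.

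Among the transporters, the glucose transporter mRNA SLC2A3 fell and the lactate exporter mRNA SLC16A3 rose. SLC2A3 encodes GLUT3, a high-affinity glucose transporter, and lies on chromosome 12 (7919230 to 7936275, GRCh38). It measured 397, 384 and 387 CPM in sensitive and 74.1, 89.8 and 74.9 CPM in resistant libraries. The groups did not overlap, and the replicates of each group lay close together. The mean fell from 389 ± 7.19 to 79.6 ± 8.86 CPM (SD, n = 3), a log2 fold change of −2.29 ± 0.17 (SE) with an edgeR adjusted p of 1.2e-05. Leaving out single libraries gave values from −2.39 to −2.24, all past the threshold. Its pseudogenes and its near copy SLC2A14 had few reads, at 0.651% of the SLC2A3 counts over 3 pseudogenes and at most 1.35 CPM for SLC2A14 in any library.

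The other class I transporter gene, SLC2A1, encodes GLUT1, the basal glucose transporter of red cells and most tumours. It measured 103, 83 and 87.9 CPM in sensitive and 85.8, 88.4 and 146 CPM in resistant libraries. Resistant replicate 3 was the highest of the 6, the groups overlapped, and the log2 fold change of 0.22 ± 0.22 (SE) did not pass (adjusted p = 0.502). Per kilobase of exon, the mean level of SLC2A3 was 63.2 CPM against 19.3 CPM for SLC2A1 in sensitive cells, and 12.9 against 22.6 CPM in resistant cells. SLC2A1 thus made up 23.4% ± 1.69 of the sum of both in sensitive and 62.7% ± 8.06 (SD, n = 3) in resistant libraries. The shares were 25.3%, 22% and 22.9% against 60.1%, 56.2% and 71.7% and did not overlap. With 3 libraries on each side an exact two-sided permutation test cannot go below p = 0.1, which this share reached (0.2 after adjustment over 12 families).

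SLC16A3 encodes MCT4, a lactate exporter of glycolytic cells. It measured 2.59, 3.25 and 2.25 CPM in sensitive and 6.81, 5.83 and 6.71 CPM in resistant libraries. The groups did not overlap at this low level. The log2 fold change was 1.26 ± 0.25 (SE, adjusted p = 0.00515), and from 1.14 to 1.39 with single libraries left out. SLC16A1, which encodes MCT1, the abundant lactate transporter of these cells, did not pass. It measured 346, 373 and 516 CPM in sensitive and 325, 373 and 506 CPM in resistant libraries, with replicate 3 the highest in both groups (log2 fold change −0.04 ± 0.23 SE, adjusted p = 0.928). MCT4 mRNA therefore remained a small part of the pair per kilobase, 0.403% ± 0.131 in sensitive and 0.972% ± 0.228 in resistant libraries.

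**Figure D2:**
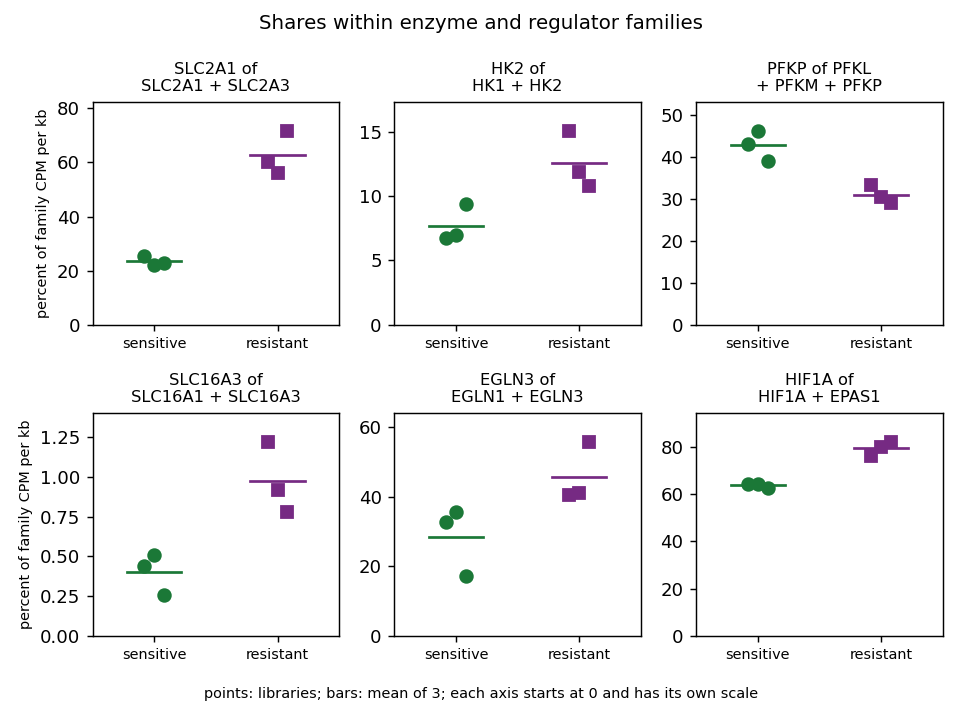
Share of 1 gene in the summed CPM per kilobase of its family (vertical axes, percent, each from 0 with its own scale) in the 3 sensitive and 3 resistant libraries. Points are libraries and bars are means. Shown are 6 of the 12 families, those in which the share of the tested gene did not overlap between groups. SLC2A1 moves from 23.4% to 62.7% of the glucose transporter pair and HIF1A from 63.7% to 79.4% of the HIF alpha pair.

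In the upper part of glycolysis, 1 of 9 enzyme genes passed, beside 23.0% of all genes tested. PFKP, the platelet isoform of phosphofructokinase, which catalyses the committed step, measured 94.7, 96.5 and 83.9 CPM in sensitive and 45.3, 43.8 and 50.9 CPM in resistant libraries. All resistant libraries lay well below all sensitive ones. It fell by 0.97 ± 0.14 on the log2 scale (SE, adjusted p = 0.00108), and by 0.93 to 1.06 with single libraries left out. The liver and muscle isoform genes, PFKL and PFKM, did not pass. PFKL measured 141, 127 and 133 CPM against 109, 112 and 138 CPM (log2 fold change −0.16, adjusted p = 0.507). PFKM measured 72.8, 65.1 and 89.2 CPM against 47.6, 58.9 and 74.3 CPM (−0.33, adjusted p = 0.261, and −0.39 with an adjusted p of 0.0220 without both libraries numbered 3). The share of PFKP in the 3 isoforms per kilobase was 43.2%, 46.3% and 39.1% in sensitive and 33.3%, 30.6% and 29.1% in resistant libraries. The share of PFKL was 33.8% ± 0.948 in sensitive and 42.9% ± 0.652 in resistant libraries, without overlap (exact permutation p = 0.1, adjusted 0.2). The PFKFB enzymes make and remove fructose 2,6-bisphosphate, the activator of phosphofructokinase, and none of their 3 genes passed. PFKFB2 had means of 58.3 ± 5.29 and 67.3 ± 16.2 CPM, PFKFB3 of 19.2 ± 6.34 and 19.7 ± 1.60 CPM, and PFKFB4 of 22.3 ± 4.18 and 18 ± 1.67 CPM (SD, n = 3) in sensitive and resistant cells.

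Hexokinase traps glucose in the cell as glucose 6-phosphate. HK1, the housekeeping form, measured 306, 297 and 377 CPM in sensitive and 232, 254 and 310 CPM in resistant libraries and did not pass (log2 fold change −0.30 ± 0.19 SE, adjusted p = 0.278). Without both libraries numbered 3 it was −0.33 (adjusted p = 0.0484). HK2, the inducible form, measured 21.4, 21.4 and 37.8 CPM against 39.7, 33.0 and 36.1 CPM. Sensitive replicate 3 lay within the resistant range, and the log2 fold change of 0.43 ± 0.23 (SE) did not pass (adjusted p = 0.210). Without sensitive replicate 3 it was 0.75 (adjusted p = 0.0125), without both libraries numbered 3 also 0.75 (0.000256), and with library totals alone 0.63 (adjusted p = 0.0497). The share of HK2 in the pair per kilobase was 6.76%, 6.95% and 9.42% in sensitive and 15.1%, 11.9% and 10.8% in resistant libraries, without overlap.

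The remaining upper enzymes did not pass. GPI, the isomerase of glucose 6-phosphate, had a log2 fold change of 0.19 ± 0.16 (SE) and TPI1, which interconverts the triose phosphates, of 0.02 ± 0.29. ALDOC, the brain form of aldolase, measured 25.6, 23.5 and 22.9 CPM against 22.7, 33.3 and 35.3 CPM (0.34, adjusted p = 0.225). ALDOA, the main aldolase of most cells, was counted at 3.96 to 7.95 CPM in any library. In GENCODE 29, 93.8% of the coding bases of ALDOA are also exon of a second gene on the same strand, ENSG00000285043, which had between 18 and 76 counts per library. No source used here states how reads in shared exons were counted, so the level of ALDOA and the aldolase shares are uncertain. The same holds for LDHB, of whose coding bases 93.5% are also exon of ENSG00000285854 on the same strand, a gene with 1 count over the 6 libraries. On the opposite strand, other genes share 42.6% of the coding bases of ANKRD37, 39.1% of CA9, 21.5% of GAPDH and 14.3% of PDK1.

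From triose phosphate isomerase to lactate dehydrogenase no enzyme gene passed the test, and the groups overlapped for all of them. Over all genes tested, 23.0% passed and the groups did not overlap for 40.1%. ENO1, enolase 1, measured 1310, 1390 and 2660 CPM in sensitive and 1260, 1620 and 2100 CPM in resistant libraries. GAPDH, which oxidises glyceraldehyde 3-phosphate, measured 783, 648 and 1240 CPM against 614, 752 and 1000 CPM. PGK1, the first enzyme to yield ATP, measured 323, 324 and 628 CPM against 331, 400 and 538 CPM. Replicate 3 was the highest of its group in each of these 3 genes. TPI1 measured 346, 353 and 665 CPM against 349, 455 and 583 CPM, and PGAM1, the mutase that precedes enolase, 111, 93.8 and 161 CPM against 99.6, 116 and 178 CPM. Log2 fold changes lay between −0.17 for GAPDH and 0.10 for PGAM1, with SE between 0.26 and 0.32, and none passed (adjusted p from 0.698 to 0.989). The signs of these small values are not stable: with library totals alone, GAPDH was at 0.01, PGK1 at 0.18 and ENO1 at 0.09.

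PKM and LDHA, the last enzymes of the sequence, were measured above the first 2 sensitive replicates in every resistant library. PKM encodes the pyruvate kinase of proliferating cells and measured 154, 175 and 411 CPM in sensitive and 354, 437 and 453 CPM in resistant libraries. LDHA, the lactate dehydrogenase subunit that favours lactate formation, measured 268, 272 and 498 CPM against 417, 430 and 448 CPM. Sensitive replicate 3 lay within the resistant range for PKM and above it for LDHA, and neither passed over all 6 libraries (PKM log2 fold change 0.75 ± 0.34 SE, adjusted p = 0.145, and LDHA 0.32 ± 0.25 SE, adjusted p = 0.398). Without sensitive replicate 3, PKM was at 1.33 (adjusted p = 0.00340) and LDHA at 0.67 (0.0327). Without both libraries numbered 3, they were at 1.25 (1.71e-06) and 0.64 (0.000804), in a fit that called 44.1% of all genes. PKM also passed with library totals alone (0.96, adjusted p = 0.0403) and with no filter on low counts (0.73, 0.00711). ENO2, the neuronal enolase, measured 15, 14.0 and 10.5 CPM against 18, 14.8 and 19.3 CPM (0.40, adjusted p = 0.177). LDHB was counted at 36.4, 35.5 and 54.7 CPM against 24.5, 29 and 50.8 CPM (−0.28, adjusted p = 0.511, and −0.68 with an adjusted p of 0.0397 without resistant replicate 3). Without both libraries numbered 3, LDHB was at −0.44 (adjusted p = 0.0123). Processed pseudogenes took few reads beside their parents, 0.902% of GAPDH counts over 65 annotated copies, 1.98% of PGAM1 and 0.0118% of ENO1.

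**Figure D3:**
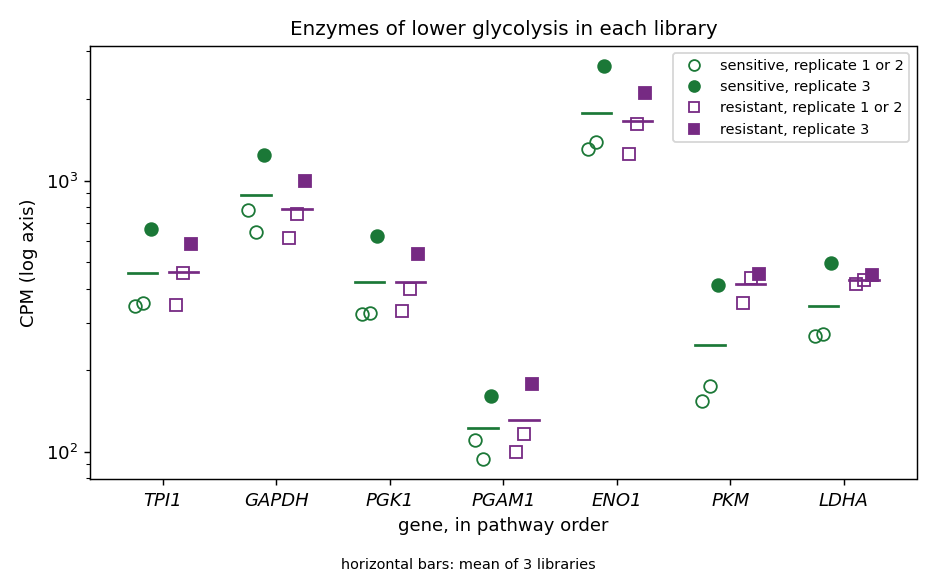
CPM (log axis) of 7 glycolytic enzyme genes in each library, with filled symbols for replicate 3 and horizontal bars for the mean of 3 libraries. Replicate 3 of the sensitive cells is the highest sensitive library for all 7 genes, and for PKM its 411 CPM lies inside the resistant range of 354 to 453 CPM.

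Summed over TPI1, GAPDH, PGK1, PGAM1, ENO1, PKM and LDHA, which were picked after their values were seen, the level was 3290, 3250 and 6260 CPM in sensitive and 3420, 4210 and 5300 CPM in resistant libraries. For the whole list of 8 lower enzymes, the median difference of replicate 3 from the mean of replicates 1 and 2 was 0.84 on the log2 scale in sensitive and 0.56 in resistant cells. It was positive for 7 of 8 in sensitive cells, where ENO2 was at −0.46, and for 8 of 8 in resistant cells. Over all 38 tested members the medians were 0.22 and 0.26. Over the 5545 protein-coding genes above 30 CPM they were 0.16 and 0.21, and over all tested genes −0.04 and −0.04. The 9 tested hypoxia targets outside glycolysis had medians of −0.24 in sensitive and 0.21 in resistant cells. The labels do not say what the replicate numbers stand for, and the cause was not tested.

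**Figure D4:**
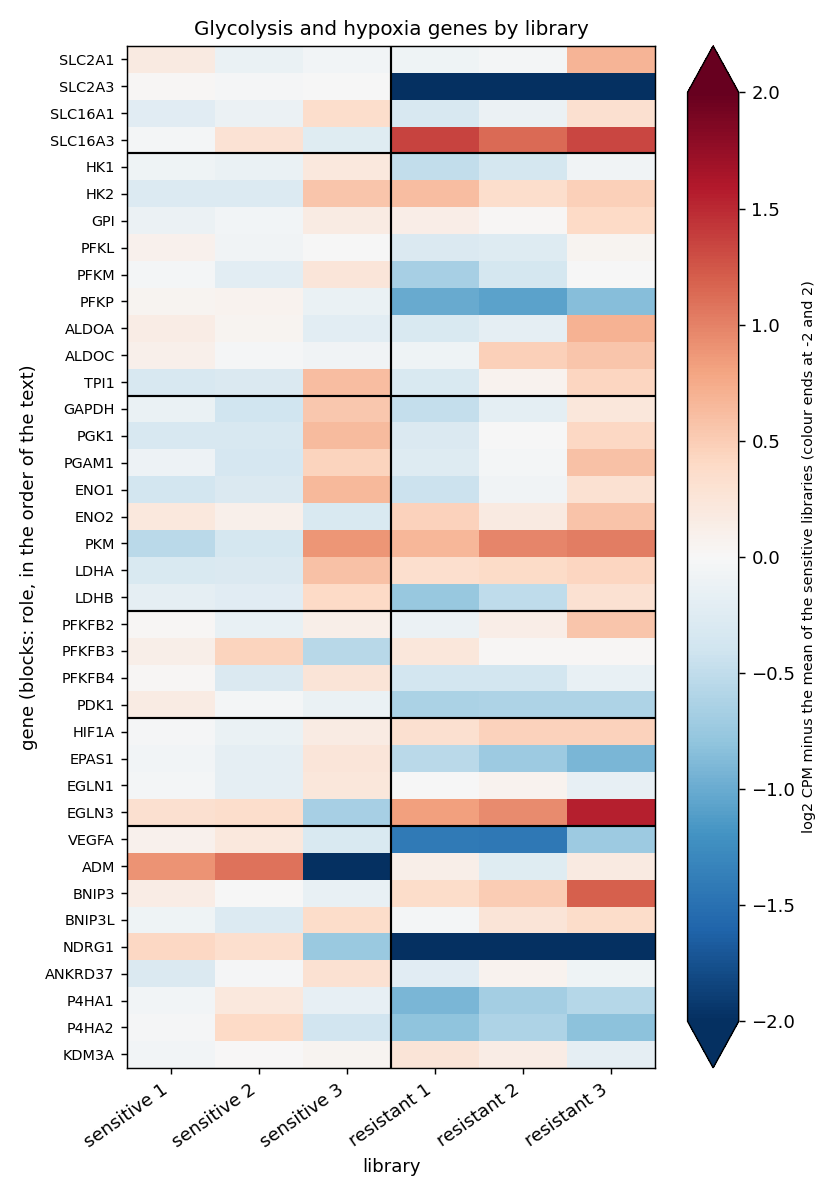
Log2 CPM of each tested member in each library minus the mean of the 3 sensitive libraries (colour), with black lines between roles and groups. SLC2A3 and NDRG1 are blue in all 3 resistant libraries, while TPI1, GAPDH, PGK1, PGAM1, ENO1, PKM and LDHA are red in replicate 3 of both groups.

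PDK1, which phosphorylates pyruvate dehydrogenase and so inhibits the conversion of pyruvate to acetyl-CoA, fell. It measured 44.8, 39.1 and 36.5 CPM in sensitive and 25.7, 26.0 and 26.1 CPM in resistant libraries, without overlap. The log2 fold change was −0.63 ± 0.15 (SE, adjusted p = 0.0128). The call was lost without sensitive replicate 1 (adjusted p = 0.0702) or resistant replicate 2 (0.0739), and with library totals alone (0.0668).

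Of the HIF alpha subunit genes, EPAS1 fell and HIF1A did not pass. EPAS1, which encodes HIF-2 alpha, measured 41.0, 37.8 and 50.6 CPM in sensitive and 29.5, 25.8 and 22.8 CPM in resistant libraries. It fell by 0.73 ± 0.17 on the log2 scale (SE, adjusted p = 0.0137), a call lost without resistant replicate 2 (0.0701). HIF1A, which encodes HIF-1 alpha, measured 52.1, 48.1 and 59.4 CPM against 66.5, 73.1 and 73.3 CPM. Its groups did not overlap either, but the log2 fold change of 0.42 ± 0.15 (SE) did not pass (adjusted p = 0.0653). It passed with library totals alone (0.59, adjusted p = 0.0106), with a filter of at least 50 counts in 3 libraries (0.46, 0.0268), with length and GC offsets (0.47, 0.0322) and without both libraries numbered 3 (0.47, 0.00428). The share of HIF1A in the pair per kilobase was 64.3%, 64.3% and 62.5% in sensitive and 76.1%, 80.1% and 82.0% in resistant libraries, without overlap (exact permutation p = 0.1, adjusted 0.2). The abundance of these mRNAs does not give the level of the proteins, which are controlled by degradation.

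Of the prolyl hydroxylases that mark HIF alpha, EGLN3 rose and EGLN1 did not pass. EGLN3 encodes PHD3 and is itself a HIF target. It measured 5.45, 5.56 and 2.76 CPM in sensitive and 7.75, 8.45 and 12.9 CPM in resistant libraries, without overlap. The log2 fold change was 1.08 ± 0.32 (SE, adjusted p = 0.0343). The call was lost in 5 of the 6 fits that left out 1 library, without resistant replicate 1 being the exception, with values from 0.80 to 1.22 and adjusted p up to 0.0760. EGLN1, which encodes PHD2, the main oxygen sensor, measured 11, 9.95 and 13.2 CPM against 11.3, 11.9 and 10.1 CPM (−0.04, adjusted p = 0.903). EGLN3 made up 32.8%, 35.6% and 17.1% of the pair per kilobase in sensitive and 40.4%, 41.2% and 55.7% in resistant libraries.

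Of the 10 hypoxia targets outside glycolysis, 9 were tested, of which 1 was higher and 4 lower (55.6% called, beside 23.0% of all genes tested). Their median log2 fold change was −0.47, with 3 positive and 6 negative values, beside a median of 0.03 over all tested genes. VEGFA, the angiogenic growth factor on chromosome 6 (43770184 to 43786487), measured 184, 200 and 140 CPM in sensitive and 64.7, 64.3 and 104 CPM in resistant libraries. The groups did not overlap, and the replicates numbered 3 lay nearest to each other. It fell by 1.17 ± 0.23 on the log2 scale (SE, adjusted p = 0.00516), and by 1.04 to 1.45 with single libraries left out, all past the threshold. NDRG1, a stress-responsive differentiation gene on chromosome 8 (133237171 to 133302022), measured 8.51, 8.03 and 3.80 CPM against 1.41, 0.654 and 0.656 CPM. The log2 fold change was −2.90 ± 0.43 (SE, adjusted p = 0.00113), the largest fall among the members, and lay between −3.36 and −2.72 with single libraries left out.

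P4HA1 and P4HA2 encode the catalytic subunits of collagen prolyl 4-hydroxylase, and both fell. P4HA1 measured 55.3, 66.6 and 51.3 CPM in sensitive and 30.3, 36.0 and 38.6 CPM in resistant libraries (log2 fold change −0.72 ± 0.16 SE, adjusted p = 0.0111). P4HA2 measured 20.0, 26.8 and 15.6 CPM against 11.6, 13.3 and 11.5 CPM (−0.77 ± 0.21 SE, adjusted p = 0.0268). Neither overlapped, but both calls depended on single libraries. That of P4HA1 was lost without sensitive replicate 2 (adjusted p = 0.0585) or resistant replicate 2 (0.0611). That of P4HA2 did not survive the omission of sensitive library 1 (0.0686) or 2 (0.114) or of resistant library 1 (0.0718) or 2 (0.0716), and was also lost with library totals alone (0.0808). The ratio of the pair did not pass, with P4HA1 at 88.5% ± 1.39 and 88.7% ± 1.32 of the sum per kilobase (exact permutation p = 0.9).

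BNIP3, a receptor that directs mitochondria to autophagy, rose. It measured 25.5, 22.9 and 20.6 CPM in sensitive and 29.4, 32.7 and 52.7 CPM in resistant libraries, with resistant replicate 3 well above the others. The log2 fold change was 0.73 ± 0.23 (SE, adjusted p = 0.0417). The call was lost in 5 of the 6 fits that left out 1 library (adjusted p up to 0.132), and the value was 0.41 without resistant replicate 3 (0.0758). Annotated BNIP3 pseudogenes, 22 of 44 with counts, held reads equal to 22.5% of the BNIP3 counts, so its level is uncertain. BNIP3L, its paralogue with a known role in clearing mitochondria from maturing red cells, measured 92.9, 81.9 and 127 CPM against 95.8, 118 and 128 CPM and did not pass (0.18, adjusted p = 0.553).

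The last 3 targets did not pass. KDM3A, a histone demethylase gene, had means of 52.1 ± 2.02 and 55.3 ± 8.48 CPM (SD, n = 3) in sensitive and resistant cells. ANKRD37, an ankyrin repeat gene, had means of 1.97 ± 0.413 and 1.84 ± 0.188 CPM. ADM, the gene of the vasodilator adrenomedullin, measured 1.00, 1.14 and 0.134 CPM against 0.581, 0.453 and 0.603 CPM. Sensitive replicate 3 had only 5 ADM counts, below every other library, and the log2 fold change was −0.47 ± 0.66 (SE).

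The core of the hypoxia response element, the site where HIF binds, is ACGTG or GCGTG, which read CACGT and CACGC on the other strand. These letters were searched in the 250 bases before the RefSeq start (first start listed per gene, GRCh38.p14). A start was listed for 33 of the 39 members. None was listed for SLC2A3, NDRG1 and VEGFA, the members with the largest falls, or for SLC16A1, PFKFB2 and BNIP3L. The ACGTG form was found in 13 of the 33 (39.4%), beside 18.7% of 27305 promoters of all genes. The GCGTG form was found in 12 (36.4%), beside 31.9%, a share near that of all promoters. Among called members with a promoter, 1 of 3 that rose (BNIP3) and 1 of 5 that fell (P4HA1) held the ACGTG form, as did 10 of 24 that did not pass and the untested CA9. The promoters of BNIP3, P4HA1, LDHA and PGK1 are shown because they carry the same letters although BNIP3 rose, P4HA1 fell and the other two did not pass. Capitals mark ACGTG and CACGT. In the palindrome CACGTG the forward and reverse letters overlap.
BNIP3, minus strand of chr10:131981924-131982173: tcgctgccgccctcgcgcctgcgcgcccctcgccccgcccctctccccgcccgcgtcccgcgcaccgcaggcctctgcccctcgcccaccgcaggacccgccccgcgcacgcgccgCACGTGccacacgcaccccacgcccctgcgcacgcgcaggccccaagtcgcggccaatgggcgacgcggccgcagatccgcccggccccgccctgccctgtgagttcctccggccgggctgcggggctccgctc
P4HA1, minus strand of chr10:73096867-73097116: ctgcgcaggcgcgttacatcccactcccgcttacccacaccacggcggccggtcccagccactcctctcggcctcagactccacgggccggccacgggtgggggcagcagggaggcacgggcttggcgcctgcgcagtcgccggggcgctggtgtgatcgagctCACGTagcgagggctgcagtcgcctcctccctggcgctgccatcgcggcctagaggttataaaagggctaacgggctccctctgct
LDHA, plus strand of chr11:18394313-18394562: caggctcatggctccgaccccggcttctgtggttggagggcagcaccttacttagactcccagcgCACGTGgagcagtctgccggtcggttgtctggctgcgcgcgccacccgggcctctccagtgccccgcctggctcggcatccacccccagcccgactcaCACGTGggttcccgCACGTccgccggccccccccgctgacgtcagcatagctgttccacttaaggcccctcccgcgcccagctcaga
PGK1, plus strand of chrX:78103998-78104247: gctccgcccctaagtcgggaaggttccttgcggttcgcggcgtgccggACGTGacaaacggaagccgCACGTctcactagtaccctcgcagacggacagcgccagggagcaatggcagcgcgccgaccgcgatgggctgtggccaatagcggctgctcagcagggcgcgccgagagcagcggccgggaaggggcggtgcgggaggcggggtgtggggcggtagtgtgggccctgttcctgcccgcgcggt
LDHA held matches at 3 places, of which 2 are palindromes, PGK1 2 separate ones, BNIP3 1 palindrome and P4HA1 1 match 86 bases before its start. A match describes the letters and is not evidence of binding in these cells.

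The members were also compared with the genes around them. For each, the median log2 fold change was taken over up to 30 neighbours, the nearest protein-coding genes with an average log2 CPM over 3. The neighbours of PKM on chromosome 15 had a median of 0.52, with 14 higher and 0 lower, beside 0.75 for PKM itself. The neighbours of EPAS1 on chromosome 2 had a median of −0.33, with 0 higher and 11 lower, beside −0.73 for EPAS1. Lower medians were found around ANKRD37 (−0.50, with 0 of 18 higher and 8 lower), LDHB (−0.48, 2 higher and 13 lower) and EGLN1 (−0.39, 2 higher and 9 lower). These members did not pass, at −0.10, −0.28 and −0.04. Of all genes tested, 9.83% were higher and 13.1% lower. SLC16A1 on chromosome 1 stood apart from its surroundings, at −0.04 where 23 of its 30 neighbours were higher and their median was 0.95. For the members with the largest falls, SLC2A3, NDRG1 and VEGFA, the neighbours' medians were −0.04, −0.17 and −0.20, and for PFKP, with 20 neighbours, 0.05. The part of position in the results was not tested.

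Other genes of these pathways were taken from 6 lists, in which 132 of 158 entries were tested. Of these, 16 were higher, 26 lower and 90 did not pass (31.8% called, beside 23.0% of all genes tested). The median log2 fold change of the 132 was −0.01. Among other isozymes, transporters and gluconeogenic enzymes, 6 of 23 were higher and 5 lower (47.8% called, beside 23.0% of all genes tested). PKLR, the red cell and liver pyruvate kinase, rose from 18.1 ± 3.98 to 90.6 ± 46.1 CPM (SD, n = 3, log2 fold change 2.33 ± 0.33 SE), with resistant replicate 3 at 144 CPM and the other resistant libraries at 64.0 and 63.9 CPM. Its share of PKM plus PKLR per kilobase was 28.3%, 20.9% and 8.80% in sensitive and 32.9%, 28.3% and 46.2% in resistant libraries. On the opposite strand, HCN3 covers 17.6% of the PKLR exon bases. HCN3 measured 5.87 to 6.31 CPM in sensitive and 11.6 to 14.3 CPM in resistant libraries. SLC2A13, a proton-coupled inositol transporter of the glucose transporter family, rose from 8.71 ± 0.909 to 31.8 ± 1.86 CPM. PCK1, the cytosolic gluconeogenic enzyme, rose from 0.360 ± 0.113 to 2.03 ± 0.248 CPM. PKLR, SLC2A13 and PCK1 are named for the smallest adjusted p of the list, and none of its 5 lower genes is among them.

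In the pentose phosphate pathway, which branches from glucose 6-phosphate, 0 of 12 were higher and 3 lower, 25% beside 23.0% of all genes. PRPS2, a phosphoribosyl pyrophosphate synthetase, fell by 0.80 ± 0.17 on the log2 scale (SE), PGD, the 6-phosphogluconate dehydrogenase, from 316 ± 60.7 to 196 ± 17.6 CPM, and H6PD, its counterpart in the endoplasmic reticulum, from 46.1 ± 11.8 to 27.7 ± 5.06 CPM. Each of these calls was lost without resistant replicate 2, with adjusted p of 0.0684, 0.129 and 0.104. The omission of sensitive library 2 (0.115) or 3 (0.0709) or resistant library 1 (0.0880) also ended that of PGD. For H6PD the omission of sensitive library 1 (0.143) or 2 (0.110) or resistant library 3 (0.0559) did the same, as did the settings with library totals alone (0.124) and with at least 50 counts (0.0567).

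Among 14 genes of pyruvate entry into mitochondria, 2 were higher and 2 lower (28.6%, beside the same 23.0%). PC, pyruvate carboxylase, rose from 12.0 ± 1.35 to 23.0 ± 1.59 CPM. PDP2, a phosphatase that activates pyruvate dehydrogenase, rose by 0.79 ± 0.20 on the log2 scale (SE) and PDK2, a kinase that inhibits it, fell from 5.59 ± 0.897 to 2.79 ± 0.270 CPM. Omitting sensitive library 1 or 2 ended the PDP2 call (adjusted p 0.0849 and 0.0765), as did omitting resistant library 1 or 2 (0.0711 and 0.0817). The PDK2 call ended when sensitive library 2 (0.0549) or resistant library 1 (0.0550) or 2 (0.0578) was omitted. Reads of PDK2 may be shared with SAMD14 on the opposite strand, which covers 38.6% of its exon bases. SAMD14 itself had between 6 and 29 counts per library.

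Glycogen and hexosamine enzymes were lower in 5 of 21 and higher in 1 (28.6% called, near the 23.0% of all genes). PYGL and PYGB, the liver and brain glycogen phosphorylases, fell from 92.2 ± 30.2 to 20.6 ± 2.48 CPM and from 46.8 ± 3.74 to 21.5 ± 1.08 CPM. GFPT1, the entry enzyme of hexosamine synthesis, fell from 232 ± 45.5 to 118 ± 5.07 CPM. Of 17 tested genes of the HIF machinery, 3 were higher and 2 lower (29.4% called, beside the same 23.0%). USP20, a deubiquitinase reported to act on HIF-1 alpha, fell from 155 ± 13.1 to 79.4 ± 12.4 CPM and OS9, a lectin of the endoplasmic reticulum, from 124 ± 5.38 to 79.3 ± 12.6 CPM. The OS9 call ended when sensitive library 1 (0.0528) or 2 (0.0670) or resistant library 1 (0.0621) or 2 (0.0813) was omitted. ARNT2, a partner of the HIF alpha subunits, rose from 4 counts in sensitive to 53 in resistant libraries.

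Of 45 further hypoxia-inducible genes tested, 4 were higher and 9 lower (28.9% called, beside 23.0% of all genes tested), with a median of −0.00. CXCR4, a chemokine receptor, rose from 5 counts over the sensitive libraries to 3.51 ± 0.465 CPM. AK4, a mitochondrial adenylate kinase, fell from 32.8 ± 1.35 to 16.3 ± 1.10 CPM, and BHLHE40, a transcriptional repressor, from 240 ± 38.4 to 92.6 ± 23.2 CPM.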

How the data were processed

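The deposited table holds raw counts per Ensembl gene, with 1 column per library. The 6 libraries were stranded, rRNA-depleted and read from both ends, per the labels' protocols. Per the submitters' processing notes, the tools include Trimmomatic 0.39, with HISAT2 2.2.1, Subread 2.0.3, featureCounts and the build GRCh38 also named there. Annotation release, strand setting and handling of shared reads were not given in the sources used here.

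Resistant libraries were set against sensitive ones in edgeR 4.0.16 (R 4.3.3) on all genes left by filterByExpr (20891), with TMM factors and the robust quasi-likelihood test, two-sided, adjusted by the Benjamini-Hochberg method over all of them. A gene is called at an adjusted p below 0.05. The SE is the log2 fold change divided by the square root of F, an approximation. CPM uses TMM-scaled totals. Levels per kilobase divide by the merged exon length in GENCODE 29, whose coordinates are printed. Family shares were tested with exact two-sided permutation tests. Symbols were found for 61369 of 61487 IDs, and 229 of 230 list entries matched.

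The members and lists were chosen with earlier results of these data known. All members are named, and for each other list the up to 3 called genes with the smallest adjusted p. The alternatives were DESeq2 1.42.0 size factors and its Wald test, library totals alone, no filter, at least 50 counts in 3 libraries, an adjusted p below 0.01, a replicate block, smooth offsets for transcript length and GC content, each library left out, and both libraries numbered 3 left out. The fit was also run on simulated counts with known changes. The simulated libraries were drawn independently, without a difference shared by the libraries numbered 3. That run therefore cannot show how the fit behaves with such a difference.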

Additional observations from a re-analysis of the deposited data

How the results depend on the processing

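With DESeq2 size factors or its Wald test, all 56 named gene results kept direction and call. Same-numbered libraries deviated together with correlations of 0.202, 0.085 and 0.299. The second is under 0.1, and sensitive library 2 correlated best with resistant library 1 (0.23). Sensitive library 3 correlated at −0.312 and −0.0793 with resistant libraries 1 and 2. A pairing by number therefore does not hold for number 2, and what the numbers stand for is not stated. With a replicate block, 5 members were higher (PKM at 0.89 and HIF1A at 0.42 joined, adjusted p 0.0159 and 0.0294) and 8 lower, while all genes called higher went from 2054 to 2859 and all genes called lower from 2741 to 3582. With the block plus length and GC offsets, 5 were higher, beside 2727 of all genes.

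At an adjusted p below 0.01, the number of all genes called higher was 938 and of all genes called lower 1586, with 1 and 4 members, and 13 lower among the other pathway genes. Library totals alone gave 6 higher and 6 lower members, beside 3041 higher and 2118 lower of all genes, and moved the median of all genes from 0.03 to 0.20. Without both libraries numbered 3, 4645 genes were higher and 5021 lower, with 7 higher members, and 30 higher and 43 lower other pathway genes. Leaving out single libraries gave 1051 to 3327 higher and 1677 to 3718 lower genes, 1 to 4 higher and 4 to 9 lower members, and 10 to 21 higher and 12 to 30 lower other pathway genes. The cause was not tested.

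Signs turned only for genes that had not passed. With library totals alone, log2 fold changes were 0.14 for SLC16A1 and EGLN1, 0.01 for PFKL and GAPDH, 0.18 for PGK1, 0.09 for ENO1 and 0.08 for ANKRD37. Without both libraries numbered 3 they were −0.11 for SLC2A1, −0.36 for ALDOA, 0.16 for PGK1, 0.08 for ENO1, −0.17 for PFKFB3, 0.13 for EGLN1 and 0.07 for ANKRD37. PGK1 was at 0.03 with at least 50 counts, 0.04 with the replicate block and 0.02 with the block and offsets. KDM3A was at −0.04 with length and GC offsets and −0.05 with the block added. Leaving out single libraries gave −0.09 to 0.36 for SLC2A1, −0.26 to 0.16 for SLC16A1, −0.27 to 0.32 for ALDOA, −0.20 to 0.40 for TPI1, −0.40 to 0.14 for GAPDH, −0.24 to 0.38 for PGK1, −0.20 to 0.36 for PGAM1 and −0.33 to 0.30 for ENO1. It gave −0.02 to 0.36 for PFKFB2, −0.20 to 0.26 for PFKFB3, −0.15 to 0.07 for EGLN1, −0.25 to 0.07 for ANKRD37 and −0.01 to 0.18 for KDM3A. Depth limits members with few counts, such as CA9 (4 over all libraries) and ADM (84 in sensitive and 62 in resistant libraries).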
